A study of Mus musculus with 2 samples.

Results

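Cytosolic ribosomal protein (RP) genes encode the protein subunits of the ribosomes that translate nuclear mRNAs. They were taken by symbol as every gene named Rpl or Rps followed by a digit, together with Rplp0, Rplp1, Rplp2 and Rpsa. Pseudogene rows, the S6 kinase genes, Rps27l and Rps19bp1 were left out. This gave 84 genes of the 32285 in each matrix, 52 of the large and 32 of the small subunit. They were measured by droplet single-cell RNA sequencing in immune cells from tumors of MC38, a colon carcinoma line, in WT mice. Control tumors were not irradiated, and IR tumors were irradiated once with 20 Gy and taken 4 days later. Cells of several tumors were pooled for the single library of each group, and no group was replicated. In the sample records the cells are labelled CD45+CD11b+Ly6Chi, whereas the protocol describes a CD45+ sort, and lymphocytes were present in both libraries.

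Each ribosome holds a small subunit, which decodes the mRNA, and a large subunit, which joins the amino acids. RP mRNAs are among the most abundant mRNAs of growing cells, and many begin with a pyrimidine tract at the cap, the TOP motif, through which their translation is tied to growth signals. Lymphocytes that enlarge and divide raise their ribosome content, while mature neutrophils are known for little protein synthesis. When ribosome assembly is disturbed, free Rpl5 and Rpl11 proteins can bind Mdm2 and so act on p53.

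Cells were barcodes with at least 1000 UMIs (unique molecular identifiers, each of which marks 1 captured RNA molecule). The Control library held 4679 cells with a median of 7302 UMIs, and the IR library 3410 cells with a median of 8268.5 UMIs. Cells were placed in a lineage gate by the UMIs of marker genes, and a gate is named by those markers. The 5 main gates held 496 Control and 360 IR cells for T cells, 281 and 357 for NK cells, 194 and 223 for dendritic cells (DC), 878 and 1315 for monocytes and 2008 and 424 for macrophages. In the 5 main gates, the gate's own markers were the highest of the lineage markers. Summed over 9 T cell markers, the T cell gate had 5584 and 4836 CPM (CPM is UMIs per 1000000 UMIs of the gate). The gating genes are among these markers, so their high levels were largely set by the gating. The gates were not pure, since summed monocyte markers were at 1444 and 2972 CPM in the T cell gate and at 795 and 1538 CPM in the macrophage gate. There were 6 cell barcodes found in both libraries.

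The promoter table of RefSeq (GRCm38.p6) listed the start of 64 of the 84 RP genes. A pyrimidine tract was searched on the strand of the gene, as a C followed by at least 4 letters that were each C or T, beginning within 5 bases of an annotated start. It was found for 29 of 64 RP genes (45.3%), against 21.2% of all 27025 genes listed. On the opposite strand the same search matched 14.1% of the RP genes and 24.4% of all genes. The starts below, with the tract in capitals, are shown because these genes had among the lowest or the least changed ratios between IR and Control. Rps6, Rps9 and Rpl12 were lower in IR in all 5 gates, and Rpl38 differed by log2 ratios of -0.08 to 0.15. Rpl5, which had the lowest ratio in 4 gates among RP genes with at least 100 UMIs in each library, had no tract in this window.
Rps6, chr4:86857353-86857382, minus strand: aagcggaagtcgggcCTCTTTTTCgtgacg
Rps9, chr7:3704026-3704055, plus strand: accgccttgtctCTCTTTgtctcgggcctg
Rpl12, chr2:32961697-32961726, plus strand: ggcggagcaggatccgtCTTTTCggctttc
Rpl38, chr11:114668565-114668594, plus strand: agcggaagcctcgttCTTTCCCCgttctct
Rpl5, chr5:107900513-107900542, plus strand: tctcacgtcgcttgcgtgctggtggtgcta

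The first comparison asked how much of each lineage's RNA came from RP genes. In the Control library the RP genes gave 28.2% of the UMIs of NK gate cells and 23.7% of those of T cell gate cells. They gave 17.1% in the monocyte gate and 16.9% in both the DC and the macrophage gate. Lymphocyte gates therefore stood above myeloid gates in this library. The exact binomial 95% intervals of the DC and macrophage gates overlapped, so these neighbours in the order did not differ beyond counting error, and the same held for the monocyte and macrophage gates of IR. All intervals given here cover counting error only, and neither tumors nor libraries were replicated.

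In the IR library the share was 20.3% in the T cell gate, 14.6% in the monocyte gate, 14.6% in the macrophage gate and 14.0% in the DC gate. Each of these 4 values was below that of the Control library, by a log2 ratio of -0.22 for T cells, -0.23 for monocytes, -0.21 for macrophages and -0.27 for DC. The NK gate did not share the difference, with 28.6% in IR and a log2 ratio of 0.02. Counting intervals did not overlap between libraries in any of the 5 gates, but with 1 library per group no test of the conditions was possible. A share cannot tell fewer RP molecules from more molecules of other genes.

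**Figure D1:**
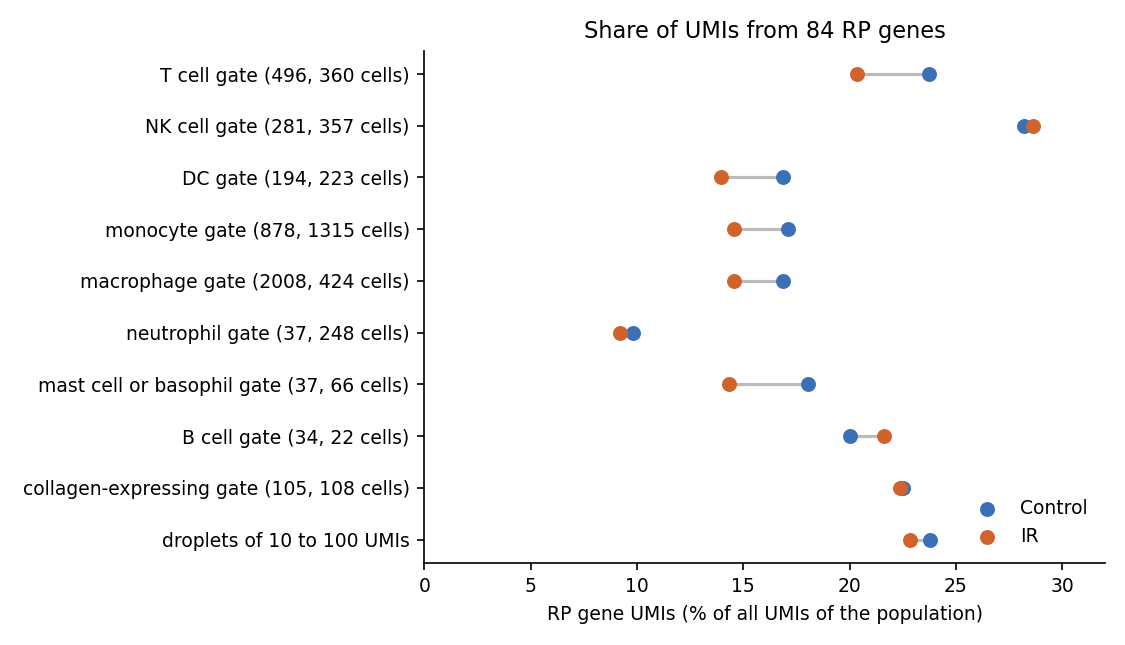
Share of UMIs from the 84 RP genes (percent of all UMIs of a population, horizontal axis from 0) in each gate and in droplets of 10 to 100 UMIs; blue points are Control, orange points IR, with cell numbers in that order, and counting intervals are smaller than the points. The T cell, DC, monocyte and macrophage gates sit lower in IR, while the NK gate sits at 28.2% and 28.6%.

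Smaller gates are given as values. Neutrophil gate cells had the lowest share, 9.84% from 37 Control cells and 9.19% from 248 IR cells. The median neutrophil gate cell had far less, 3.61% in Control and 3.12% in IR. Summed macrophage markers were at 3997 and 1638 CPM in this gate. The mast cell or basophil gate had 18.1% from 37 Control cells and 14.3% from 66 IR cells. Its median cells had 12.2% and 12.9%, so the summed values and the medians differed in direction. The B cell gate had 20.0% from 34 Control and 21.6% from 22 IR cells. Cells with collagen markers, of which 14.3% in Control and 9.26% in IR had a UMI of Ptprc (the gene of CD45), had 22.5% and 22.4%. Droplets of 10 to 100 UMIs, which hold free RNA, had 23.8% RP UMIs in Control and 22.8% in IR, a log2 ratio of -0.06.

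Within the T cell gate, RP genes gave 24.8% of UMIs in CD8 cells of Control (236 cells) and 20.5% in those of IR (166 cells). Cells with Foxp3, the factor of regulatory T cells, had 19.4% and 15.8% (50 and 27 cells), and CD4 cells without Foxp3 had 21.2% and 19.2% (50 and 40 cells). All 3 subsets were lower in IR, with log2 ratios of -0.28, -0.29 and -0.15. Among NK gate cells, those with Klra8, a receptor of mature NK cells, and no Gzmc, a granzyme of strongly activated ones, had 24.2% and 22.8% (49 and 89 cells). Those with Gzmc and no Klra8 had 28.5% and 29.5% (132 and 114 cells). These NK subsets, defined after the values were seen, lay on opposite sides of no change, at log2 ratios of -0.09 and 0.05.

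DC subsets also differed from each other. DC with Ccr7 or Fscn1, which mark migratory mature DC, had 16.6% RP UMIs in Control (127 cells) and 12.7% in IR (159 cells), a log2 ratio of -0.38. DC with Cd209a had 17.8% in both libraries (35 and 46 cells). DC with Xcr1 or Clec9a had 17.1% and 14.3%, the IR value from 3 cells. The mature DC made up most of the gate in both libraries.

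Cycling cells were also set apart. Cycling cells, those with at least 3 UMIs and 0.2% of UMIs from 11 cycling genes, were 17.6% of Control and 6.84% of IR macrophage gate cells. RP genes gave 16.7% and 16.4% of UMIs in cycling macrophage gate cells (353 and 29 cells), and 16.9% and 14.3% in the others. In the monocyte gate the shares were 18.1% and 18.2% in cycling cells (37 and 15 cells) and 17.0% and 14.5% in the others. In cycling T cell gate cells they were 22.9% and 21.7% (79 and 42 cells), against 24.1% and 19.9% in the others. The difference between libraries was thus as large or larger without the cycling cells in these 3 gates. DC gate cells did not differ in this way, with 16.7% and 13.8% in cycling cells (28 and 24 cells) and 16.9% and 14.0% in the others, log2 ratios of -0.27 and -0.28. In the NK gate the shares were 26.2% and 28.6% in cycling cells (20 and 31 cells), a log2 ratio of 0.13, and 28.5% and 28.6% in the others.

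Depth per cell also differed, with a median of 5039 UMIs in Control and 8042.5 in IR for T cell gate cells, and of 5860.5 and 8254 for monocyte gate cells. RP shares were lowest in cells of 1000 to 2000 UMIs in all 5 Control gates, for example 11.0% against 18.8% above 16000 UMIs in the monocyte gate. Between libraries at like depth, the monocyte and DC gates were lower in IR in each of 5 depth classes, by log2 ratios of -0.52 to -0.20 and of -0.44 to -0.28, though the DC classes under 4000 UMIs held only 7 to 19 cells per library. T cell gate cells were lower in all 5 classes, by as little as -0.06 at 2000 to 4000 UMIs and as much as -0.33 at 8000 to 16000 UMIs. Macrophage gate cells were lower in the 4 classes from 2000 UMIs and at 0.17 in the lowest class (26 IR cells). NK gate cells ranged from -0.18 to 0.27, the latter from 11 IR cells.

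**Figure D2:**
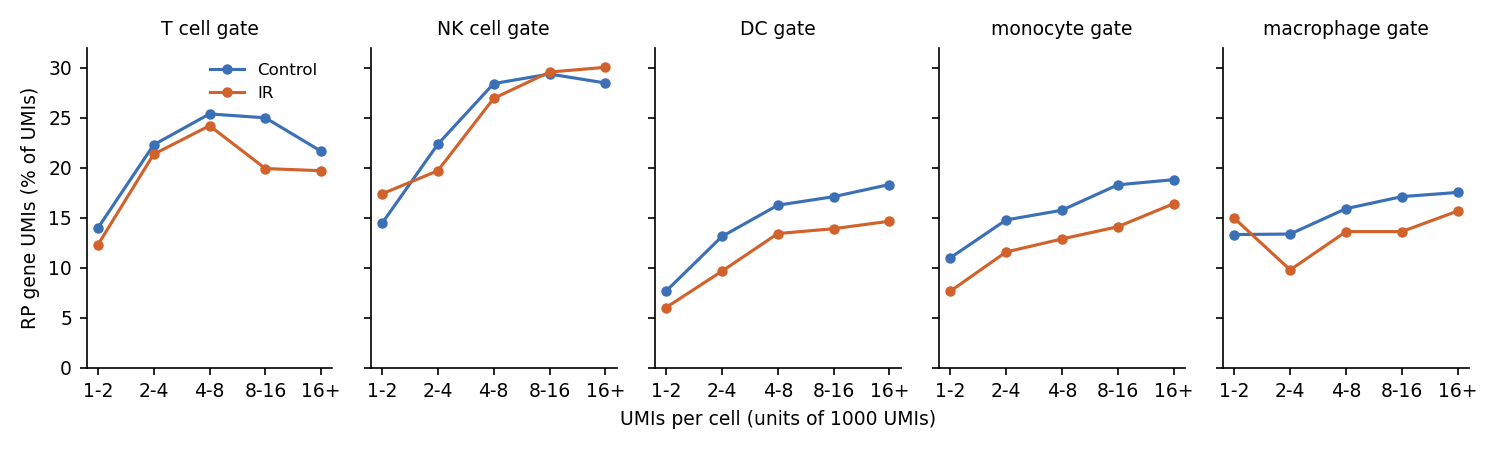
RP gene UMIs (percent of UMIs, vertical axis) against UMIs per cell in classes (units of 1000 UMIs, horizontal axis) for the 5 main gates; blue is Control and orange IR, each point 1 library. The orange line lies below the blue line in every class of the T cell, DC and monocyte gates, and the lines cross in the NK gate.

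Mitochondrial genes also gave a smaller share of UMIs in IR, 4.38% and 3.52% in the T cell gate and 5.99% and 3.89% in the macrophage gate. The NK gate had 4.20% and 3.28%, so this difference was present where the RP share was not lower. Summed over 6 genes, neutrophil markers were at 6.96 CPM in Control and 209 CPM in IR in the T cell gate and at 71.5 and 194 CPM in the monocyte gate. The part of depth, of mitochondrial RNA and of these markers in the RP result was not tested. Free RNA was estimated at 1.29% to 10.8% of the UMIs of a gate.

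Within single cells the shift covered most of the range. The median RP share of monocyte gate cells was 15.8% in Control and 13.1% in IR, with 10th percentiles of 9.87% and 6.74% and 90th percentiles of 21.3% and 19.3%. NK gate cells had medians of 26.9% and 26.9%. Cells of a library are not replicates, and these values are a description.

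The next comparison asked whether the lower share came from a few RP genes or from many. Of the 84 RP genes, 81 had at least 50 UMIs over both libraries in every main gate. Rpl10l, a copy active in testis, had no UMI in any gate, and Rpl39l and Rpl3l, copies known from testis and muscle, passed the minimum only in some. IR levels were below Control levels for 76 of 81 genes in the T cell gate, 77 of 81 in the DC gate, 79 of 82 in the monocyte gate and 74 of 83 in the macrophage gate. Of the 81 in the NK gate, 30 were below. Of the 81 genes, 29 were lower in all 5 gates and 39 in 4 gates. The share of all genes below Control was not counted, but their median was also slightly below no change in every main gate except DC.

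Median log2 ratios of the RP genes were -0.19 in the T cell gate, -0.26 in the DC gate, -0.22 in the monocyte gate, -0.21 in the macrophage gate and 0.02 in the NK gate. The medians over all genes tested were -0.04, 0.02, -0.04, -0.06 and -0.06. Genes other than RP genes with at least 100 CPM had medians of 0.02, 0.08, 0.03, 0.01 and -0.01. So the RP genes moved together by a small amount, below the other well-measured genes in 4 gates.

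Genes were also counted that passed a fixed fold, a log2 ratio of 0.32 in size, by value alone and with no test. In the T cell gate 14 RP genes were past it lower in IR (17.3%), where 16.9% of all genes tested were, and 1 was higher, where 16.3% of all genes were. In the macrophage gate 19 were lower (22.9%) against 22.8% of all genes, and 3 were higher against 14.2%. In the monocyte gate 19 were lower (23.2%) against 17.3%, and 1 was higher against 14.0%. With TMM factors, another scaling, 8 of the 82 RP genes of the monocyte gate were lower, a smaller share than the 13.8% of all genes, so this count stood above the background by one scaling and below it by the other. With all cells kept and all UMIs of the gate as the total, the counts of the T cell and macrophage gates were thus at the background. In this setting they were no result about RP genes. In cells of 4000 to 10000 UMIs 24 and 38 RP genes of these gates were lower, against 19.5% and 28.7% of all genes. Without cycling cells 26 and 24 were lower, against 17.1% and 21.1%. With each cell weighted equally 4 and 23 were lower, against 19.6% and 27.1%. These counts thus depended on the setting. Of the 81 RP genes of the T cell gate, 13 were lower with TMM factors, against 15.5% of all genes. Without RP genes in the total 26 were lower, against 22.5%.

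In the DC gate 32 RP genes were lower (39.5%) against 17.3% of all genes, and 0 were higher against 18.9%. In the NK gate 0 were lower against 22.6%, and 2 were higher against 13.6%. Most genes tested have few UMIs and scatter widely. Among other genes of at least 100 CPM, 7.37% in the T cell gate, 11.8% in the NK gate, 7.27% in the DC gate, 7.02% in the monocyte gate and 10.2% in the macrophage gate were past the fold lower in IR. Scaling moved the split of all genes. With TMM factors 15.5% of genes were lower and 17.2% higher in the T cell gate, 17.3% and 17.7% in the NK gate and 13.8% and 16.6% in the monocyte gate. Without RP genes in the total, 22.5% were lower and 13.8% higher in the T cell gate and 21.2% and 15.6% in the DC gate. The DC count of RP genes, 27 lower with TMM factors (against 16.3% of all genes) and 38 without RP genes in the total, stayed above the shares of all genes under these scalings. In DC gate cells of 4000 to 10000 UMIs 16 were lower, against 15.1% of all genes, so the excess was smaller there.

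**Figure D3:**
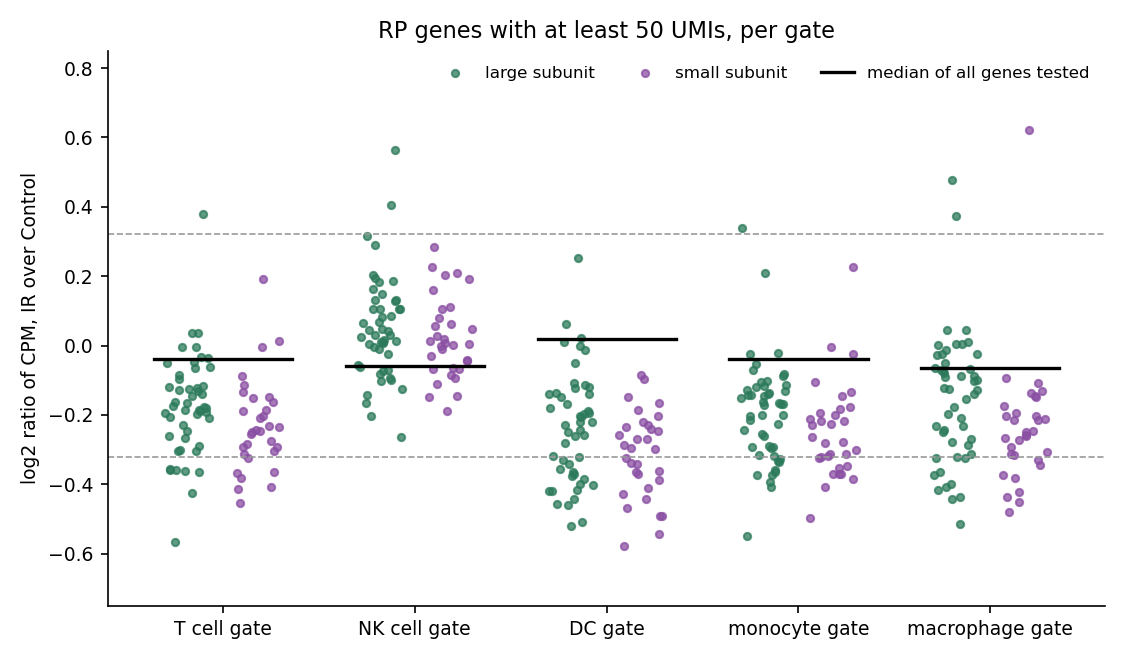
log2 ratio of CPM, IR over Control (vertical axis), of each RP gene with at least 50 UMIs, by gate; green points are large and purple points small subunit genes, black lines the median of all genes tested and dashed lines the log2 ratio of 0.32 in either direction. Rpl39l of the macrophage gate, at -2.57 from 72 UMIs, lies outside the axis. Most points lie below the black line in 4 gates and above it in the NK gate.

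Small subunit genes were lower by more than large subunit genes. Summed over 32 genes they gave 10.7% of T cell gate UMIs in Control and 8.93% in IR, and the 52 large subunit genes 13.0% and 11.4%. The log2 ratios were -0.26 for the small and -0.19 for the large subunit in the T cell gate, -0.31 and -0.24 in the DC gate, -0.26 and -0.21 in the monocyte gate and -0.27 and -0.17 in the macrophage gate. They were 0.00 and 0.04 in the NK gate. Droplets of 10 to 100 UMIs had the same order, at -0.10 and -0.03.

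Among large subunit genes with at least 100 UMIs in each library, Rpl5 had the lowest ratio in all 5 gates. Rpl5 (chromosome 5) carries the 5S rRNA into the large subunit together with Rpl11. Its level was 1831 CPM in Control and 1237 CPM in IR in the T cell gate, 1165 and 796 in the monocyte gate, 1240 and 867 in the macrophage gate, 1031 and 719 in the DC gate and 2225 and 1852 in the NK gate. Rpl5 was thus lower in IR in all 5 gates, past the fold in 4, with log2 ratios of -0.57, -0.55, -0.52, -0.52 and -0.26. In the T cell gate the interval of its log2 ratio was -0.62 to -0.51. In droplets of 10 to 100 UMIs the log2 ratio of Rpl5 was -0.26. Its partner Rpl11 differed less, with 3013 and 2737 CPM in the T cell gate and 2242 and 1877 CPM in the monocyte gate.

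The P stalk, which recruits elongation factors to the large subunit, is built of Rplp0, Rplp1 and Rplp2 on a base that includes Rpl12. Rplp1 was at 4768 and 3723 CPM in the T cell gate, 3084 and 2166 in the DC gate, 3595 and 2792 in the monocyte gate and 4631 and 3470 in the macrophage gate. It was past the fold lower in these 4 gates, while in the NK gate it was at 5437 and 5612 CPM. Rplp1 had the lowest log2 ratio in droplets of 10 to 100 UMIs of all RP genes over 1000 UMIs there, -0.38. Rplp2 and Rplp0 were past the fold in no gate, and Rplp2 lay just short of it in the DC gate. Rpl12 was at 2326 and 1733 CPM in the T cell gate and at 1299 and 989 CPM in the monocyte gate, log2 ratios of -0.42 and -0.39.

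Other large subunit genes past the fold in 4 gates were Rpl13a, also known as part of a translation inhibitor of interferon-treated monocytes, and Rpl10a. Rpl13a was at 2232 and 1641 CPM in the macrophage gate and 2101 and 1572 CPM in the DC gate. Rpl10a was at 2467 and 1924 CPM in the T cell gate and 1759 and 1333 CPM in the macrophage gate. Both differed less in the NK gate, at -0.14 and -0.08. Rpl3, a core protein near the peptidyl transferase centre, was past the fold in 3 gates, with 1502 and 1132 CPM in the macrophage gate.

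Of the small subunit genes, Rps6, Rps9, Rps3a1, Rps4x and Rps12 were past the fold lower in 4 gates. Rps6, the substrate of S6 kinase, was at 1218 and 817 CPM in the DC gate, 1356 and 960 in the monocyte gate, 1260 and 921 in the macrophage gate and 1850 and 1388 in the T cell gate. Its level was 2324 and 2218 CPM in the NK gate, a log2 ratio of -0.07 against -0.58 in the DC gate. Rps9, which lies near the mRNA entry channel, was at 3025 and 2168 CPM in the macrophage gate and 3081 and 2228 CPM in the DC gate. Rps4x, on chromosome X, was at 3224 and 2295 CPM in the DC gate.

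Rpsa, also known as a laminin receptor, was at 5998 and 4377 CPM in the T cell gate, the second lowest ratio there (log2 -0.45), and at 3206 and 2581 CPM in the macrophage gate. Rps3, at the mRNA entry, was at 3297 and 2722 CPM in the T cell gate and 4383 and 4405 CPM in the NK gate. Rps27a, made as a fusion with ubiquitin, was at 4344 and 3691 CPM in the T cell gate and 3880 and 3225 CPM in the macrophage gate. Rps3 and Rps27a passed the fold in the DC gate alone, at log2 ratios of -0.32 and -0.34.

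Several short RP genes differed little in most gates, though not in all. Other short genes did not share this, as Rplp1 (342 coding bases) and Rps12 (396) were past the fold lower in 4 gates. Rpl41, which encodes the shortest RP protein (75 coding bases), was at 3687 and 3779 CPM in the T cell gate, 2773 and 2747 in the DC gate, 3116 and 3006 in the monocyte gate and 3517 and 3302 in the macrophage gate. Rpl41 was past the fold higher in the NK gate, at 4004 and 5304 CPM. Rpl38, needed for translation of some Hox mRNAs, was at 2579 and 2497 CPM in the T cell gate and 1897 and 1867 CPM in the macrophage gate. Rpl39, at the peptide exit tunnel, was at 2292 and 2288 CPM in the DC gate and at 3325 and 3041 CPM in the T cell gate. Rps29, a zinc-binding protein, was at 2355 and 2375 CPM in the T cell gate and at 2193 and 1880 CPM in the DC gate, where its log2 ratio of -0.22 was near the median of the RP genes. In the NK gate Rpl38 and Rps29 were higher in IR, at log2 ratios of 0.15 and 0.23, and Rps29 was among the 5 highest there of RP genes with at least 100 UMIs in each library.

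Relative to all RP UMIs, 22 genes had a higher share in IR in all 5 gates, among them Rpl41, Rpl38, Rpl39, Rpl37, Rpl36, Rpl34, Rpl31, Rps28 and Rps29. Another 21 had a lower share in all 5, among them Rpl5, Rpl3, Rpl12, Rpl13, Rps6, Rps9, Rpsa and Rps4x. Both sets held short and long genes. Among genes with at least 100 CPM and 100 UMIs in each library, 13 of 20 in the first set were shorter than the median. In the second set 3 of 21 were, against 38 of all 79. Among the long genes of the first set were Rpl6 (888 coding bases), Rps2 (879) and Rpl7a (798). Over the 79 RP genes with at least 100 CPM and 100 UMIs in each library, the log2 ratio went down with coding length (GENCODE vM21, median 453 bases), with Spearman's rho of -0.61 in the T cell gate, -0.50 in the NK gate, -0.49 in the monocyte gate, -0.46 in the DC gate and -0.26 in the macrophage gate. Pearson's r with log2 length was -0.62, -0.53, -0.53, -0.50 and -0.29.

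The 38 shorter genes had median log2 ratios of -0.15 and the 41 longer ones of -0.26 in the T cell gate, and of 0.08 and -0.04 in the NK gate. The order by length was thus present where the total RP share was not lower. In droplets of 10 to 100 UMIs rho was 0.07. Over 1171 to 1367 other genes of at least 100 CPM in the 5 gates, rho with coding length lay between -0.26 and 0.04. Genes of 1 pair of libraries share library and depth and are not independent, so these coefficients are a description with no p. The base composition of the genes was not examined.

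**Figure D4:**
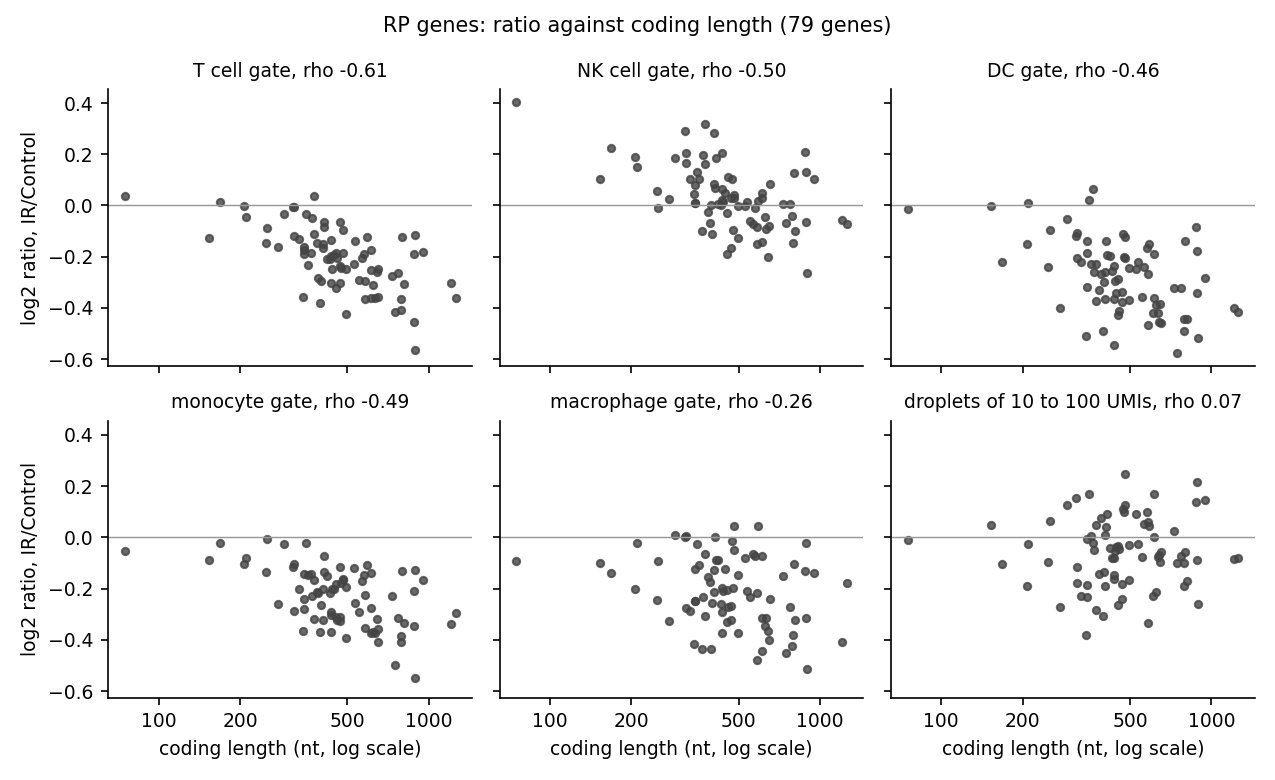
log2 ratio of CPM, IR over Control (vertical axis), against coding length (nt, log scale) of 79 RP genes in each gate and in droplets of 10 to 100 UMIs; each point is 1 gene and the grey line marks no change. Points slope down in the 5 gates (rho -0.26 to -0.61) and not in the droplets (rho 0.07).

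The tract at the start did not separate the genes in this way. RP genes with a tract had median log2 ratios of -0.18 in the T cell gate, -0.24 in the DC gate, -0.20 in the monocyte gate and -0.18 in the macrophage gate, and those listed without had -0.19, -0.29, -0.23 and -0.21. Of the 10 genes past the fold lower in 4 gates, 9 were listed and 4 had a tract (Rpl12, Rps6, Rps9, Rpl13a). Annotated starts can lie some bases from the start in use.

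RP genes with a close copy were read apart, though reads of near-identical copies can be assigned to either. Rps27rt, an intronless copy of Rps27, was at 17.7 and 27.3 CPM in the macrophage gate (342 and 136 UMIs), past the fold higher, and at 19.7 and 23.1 CPM in the monocyte gate. Rps27 was at 1205 and 1130 CPM in the macrophage gate. Rpl7l1, a factor of large subunit assembly rather than a ribosome subunit, had levels above Control in IR in all 5 gates, for example 52.4 and 67.8 CPM in the macrophage gate and 30.1 and 44.5 CPM in the NK gate, while Rpl7 was lower in all 5, at 1604 and 1283 CPM in the macrophage gate. Rpl7l1 rested on 67 to 1009 UMIs per gate and library outside the DC gate, where it had 63 and 107 and the interval of its log2 ratio, -0.21 to 0.73, included 0. In T cell gate cells of 4000 to 10000 UMIs the direction of Rpl7l1 turned, at a log2 ratio of -0.16.

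Rpl22l1 was at 479 and 354 CPM in the macrophage gate, past the fold lower, and at 344 and 360 CPM in the DC gate. Rpl22, its copy known for a role in lymphocyte development, was at 1316 and 1182 CPM and at 1358 and 1080 CPM in those gates. Rpl36al and Rpl36a were at 771 and 774 CPM and at 870 and 718 CPM in the macrophage gate. Rpl39l had 69 Control and 3 IR UMIs in the macrophage gate, a log2 ratio of -2.57 with an interval of -4.89 to -0.97, and Rpl39 was at 2264 and 2112 CPM there. Rpl3l had 33 IR UMIs and 5 Control UMIs in the DC gate, with 38 in all, below the minimum. Rpl10 was at 2007 and 1464 CPM in the DC gate, and no row was named Rps4l. Of all RP genes, 60 have a named pseudogene in the annotation, up to 24 for a single gene, and 4 have a pseudogene row in the matrices.

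The last comparison asked whether the mix of RP mRNAs differed between lineages. For most genes it did not differ much: over 79 genes in Control and 80 in IR, the median range of a gene's share of RP UMIs across the 5 gates was 0.30 on the log2 scale in each library. Rpl7 was among the most even, with 0.927% to 0.963% of RP UMIs in the Control gates and 0.850% to 0.897% in the IR gates. Rps16 ranged from 1.89% to 2.03% in Control.

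Rps19, a gene known for its loss in Diamond-Blackfan anemia, varied most in Control among these genes. It took 2.01% of RP UMIs in the DC gate, 1.65% in macrophages, 1.46% in monocytes, 1.31% in T cells and 1.14% in NK cells. In IR the DC gate was again highest, at 2.06%, and the NK gate lowest, at 1.29%. Rps15a was higher in the lymphocyte gates, with 2.02% in T cells and 1.94% in NK cells against 1.24% to 1.37% in the myeloid gates of Control. In IR these values were 1.93%, 1.82% and 1.27% to 1.39%.

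Rpl36al was higher in monocytes (0.499%) and macrophages (0.457%) than in NK cells (0.299%) of Control. Rps25, known for a role in translation from internal entry sites, was likewise higher in both, with 0.661% and 0.689% against 0.429%. For Rps25 the DC gate lay near them, at 0.629% in Control and 0.588% in IR. Rps18 was lowest in DC, at 0.805% and 0.732%, and highest in NK cells, at 1.19% and 1.27%. Rpl22l1 had 0.325% in NK cells and 0.204% in DC of Control, and a narrower range in IR, 0.243% to 0.299%. Rpl7l1 ranged from 0.0155% in NK cells to 0.0466% in macrophages of IR. The highest and the lowest gate were the same in both libraries for Rps19, Rpl36al, Rps25 and Rps15a.

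**Figure D5:**
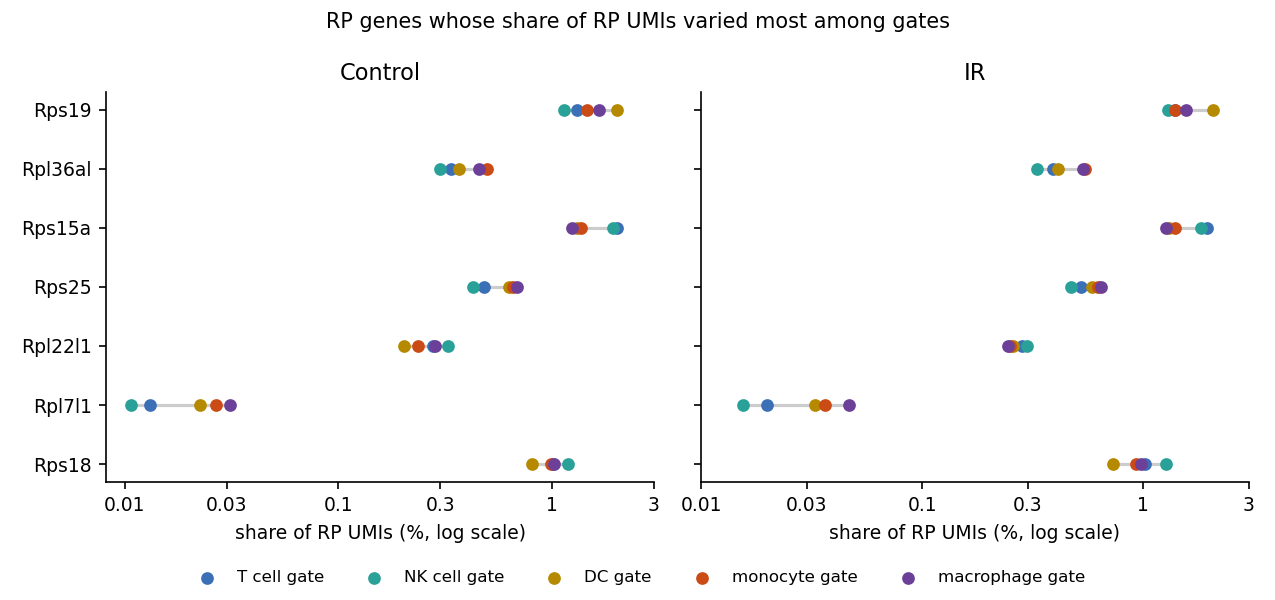
Share of RP UMIs (percent, log scale, horizontal axis) of RP genes named for the largest range among the 5 main gates in either library, Control left and IR right; each point is 1 gate. Rps15a lies higher in the T and NK cell gates, Rpl36al in the monocyte and macrophage gates, and Rps25 in the DC, monocyte and macrophage gates, in both libraries.

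Other genes of translation were taken from lists. Rack1, a scaffold protein of the small subunit, was at 2333 and 1743 CPM in the T cell gate, 1492 and 1000 in the DC gate, 1704 and 1241 in the monocyte gate and 1673 and 1240 in the macrophage gate, past the fold lower in these 4. Fau, which encodes a ribosomal protein as a fusion with a ubiquitin-like protein and falls outside the symbol rule, was not past it in any gate, with log2 ratios of -0.08 to 0.04. Of 17 translation factors known to be of the TOP class, 4 of 11 listed with a tract in the search above, 6 were past the fold lower in the T cell gate, 7 in the DC gate, 9 in the monocyte gate, 4 in the macrophage gate and 2 in the NK gate, and 0 were higher in any gate. Of all genes 16.9%, 17.3%, 17.3%, 22.8% and 22.6% were lower in these gates, so 4 of 17 in the macrophage gate was near the background and no result, and 2 of 17 in the NK gate was below it. Their median log2 ratios were -0.25, -0.30, -0.33, -0.19 and -0.02, where those of the RP genes were -0.19, -0.26, -0.22, -0.21 and 0.02. Eef1a1, an elongation factor, was at 7147 and 6215 CPM in the T cell gate and 8758 and 8803 CPM in the NK gate.

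Ribosome biogenesis genes followed another order. Of 29 tested, 10 were lower past the fold in the monocyte gate and 0 higher (median -0.28), and 8 lower and 2 higher in the T cell gate (median -0.17). In the NK gate 2 of 28 were lower and 7 higher (median 0.18), in the macrophage gate 6 of 29 lower and 0 higher (median -0.11), and in the DC gate 2 of 17 each way (median -0.05). Against the shares of all genes, the lower counts of the monocyte (17.3%) and T cell (16.9%) gates and the higher count of the NK gate (13.6%) stood above the background, and the lower count of the macrophage gate (22.8%) and both counts of the DC gate (17.3% lower, 18.9% higher) were below it. Mitochondrial ribosome genes, which act on mitochondrial mRNAs, had medians of 0.05 in the T cell gate, 0.15 in the NK gate, 0.01 in the DC gate, -0.14 in the monocyte gate and 0.00 in the macrophage gate, with 4, 2, 6, 11 and 4 lower and 7, 11, 10, 1 and 7 higher past the fold of 71 to 78 tested. These counts were below the shares of all genes in both directions, except the higher count of the NK gate, 11 of 75 against 13.6%. The 20 initiation factors and regulators had medians of -0.05, -0.02, -0.11, -0.09 and -0.04, with 3 or 4 lower and 0 to 3 higher in each gate, near or below the shares of all genes. In the T cell, DC and macrophage gates the medians of the cytosolic RP genes and of the TOP class factors were thus between -0.19 and -0.30, and those of the mitochondrial ribosome genes at or near 0.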

How the data were processed

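The authors deposited, for each library, a matrix of raw UMI counts over all barcodes of 10x Chromium droplets. The submitters' processing notes name Cell Ranger 6.0.1 and mm10, while both file headers name Cell Ranger 4. Depth was 48593879 UMIs in Control and 42406461 in IR. Cells had at least 1000 UMIs, 200 genes and at most 25% mitochondrial UMIs. Gates other than the monocyte and macrophage gates required 3 UMIs and 0.05% of UMIs of a marker list (neutrophils 0.5%). That list also had to hold 3 times the UMIs of any other such list that passed, and no fewer than the C1q genes. Thus 397 Control and 180 IR mixed cells were left out along with 212 and 107 cells with no gate. No doublet caller was run. Cells that passed none of the other marker lists needed 3 monocyte and C1q UMIs together, with no percent limit. They were split by the larger of the monocyte and C1q sums, with ties to the macrophage gate. The cutoffs were set after seeing these data, and the members and lists were chosen with earlier results of these data known.

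UMIs were summed per library and gate (Python 3.11.15, scipy 1.17.1) and divided by all UMIs of the gate. The 5 highest and 5 lowest RP genes by ratio per gate with 100 UMIs in each library, those with the 5 largest and 5 smallest ranges over gates, and the P stalk, 5S particle, copies and a few others were named by rule. A few genes that the rule or the lists select are not reported here. Genes past the fold in 4 gates, the short genes, Rpl3, Rpl13, Rpl6, Rps2 and Rpl7a were named after their values were seen. A difference was counted past a log2 ratio of 0.32 in size, with no test. Intervals were exact Poisson or Clopper-Pearson at 95%. Calls were also run on simulated counts with planted changes and counting error only, which cannot show how tumors or libraries vary. Alternatives concerned cell depth, mitochondrial limit, gate, weighting, denominator, free RNA, cycling cells, TMM scaling (edgeR 4.0.16), fold and filter. Chromosomes and coding lengths came from GENCODE vM21 (GRCm38).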

Additional observations from a re-analysis of the deposited data

Results flagged for a closer look

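The RP share of UMIs in the NK cell gate had a log2 ratio, IR over Control, of 0.020, opposite in direction to the T cell, DC, monocyte and macrophage gates at -0.21 to -0.27. It came from 281 Control and 357 IR cells, and the difference between gates was not tested, since each group had 1 library.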

How the results depend on the processing

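The RP share of UMIs was lower in IR in the T cell, DC, monocyte and macrophage gates under all 9 alternatives, and in the NK gate its small ratio reversed under 2 of them. Log2 ratios that left the counting interval were as follows. With at least 2000 UMIs they were -0.228 (T cells), 0.0141 (NK cells), -0.237 (monocytes) and -0.218 (macrophages), and with at most 10% mitochondrial UMIs -0.237 (T cells), -0.297 (DC), -0.241 (monocytes) and -0.242 (macrophages). With each cell weighted equally they were -0.147 (T cells), -0.0256 (NK cells, reversed), -0.253 (DC), -0.259 (monocytes) and -0.227 (macrophages), and without mitochondrial genes in the total -0.235, 0.00598, -0.297, -0.247 and -0.246 in that order. With free RNA subtracted they were -0.243 (T cells) and -0.253 (monocytes), without cycling cells -0.272 (T cells), 0.00463 (NK cells) and -0.244 (macrophages), and with a gate of 6 marker UMIs -0.226 (monocytes) and -0.210 (macrophages). In cells of 4000 to 10000 UMIs, a setting chosen after seeing the data, they were -0.0548 (NK cells, reversed), -0.196 (DC), -0.330 (monocytes) and -0.294 (macrophages). The cause of each was not tested. The number of RP genes past the fold, 15 in the T cell, 2 in the NK, 32 in the DC, 20 in the monocyte and 22 in the macrophage gate, was 25, 6, 16, 41 and 40 in this depth range. In that range 19.5%, 18.8%, 15.1%, 20.5% and 28.7% of all genes were lower, and 20.5%, 19.2%, 22.4%, 14.6% and 18.9% higher. With 1.5-fold as the fold the number of RP genes was 0, 0, 0, 0 and 2, by a stricter limit. Past 1.5-fold 5.51% to 9.75% of all genes were lower and 5.02% to 7.88% higher, so these RP counts were below the background. It was 6 (T cells) and 0 (NK cells) with cells weighted equally, 28 (T cells) without cycling cells, 26 (T cells) and 31 (monocytes) without RP genes in the total, 5 (NK cells) and 9 (monocytes) with TMM scaling, 4 (NK cells) with a minimum of 1 UMI, and 1 (NK cells) where intervals had to be apart. The other 46 counts stayed within 1.5 times. The order of the 5 gates by RP share kept 2 or 3 gates at the same rank under 6 alternatives, since the 3 myeloid gates lay close: in Control 3 with the mitochondrial limit, 3 with equal weights, 2 without mitochondrial genes, 3 without cycling cells and 2 in the depth range, and in IR 2 with equal weights, 3 without mitochondrial genes, 3 with free RNA subtracted and 3 in the depth range. Among single genes Rpl7l1 in the T cell gate (-0.16) and Rpl3l in the macrophage gate (-0.12) reversed in the depth range. The negative relation with coding length held in every gate under the 8 alternatives run, weakest in the DC gate in the depth range (rho -0.28). No paired analysis was possible because each group had 1 library.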
